A study of Homo sapiens with 6 samples.

Results

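Human mitochondrial DNA (mtDNA) encodes its own transfer RNAs, and 10 of the 22 transfer RNA genes lie on the plus strand between the protein genes MT-ND1 and MT-ND5. They are MT-TI, MT-TM, MT-TW, MT-TD, MT-TK, MT-TG, MT-TR, MT-TH, MT-TS2 and MT-TL2, chosen by strand and position among the 57500 genes counted in each library. RNA came from mitochondria that a kit isolated from HepG2 cells, an established line from a human liver carcinoma with an unaltered (WT) genotype in the labels. Cells took the solvent DMSO alone (0 µM, the control), 10 µM GenX or 100 µM GenX for 48 h, in 2 libraries per dose and 6 in all, every one labelled as batch 1. GenX is a short-chain perfluoroalkyl substance that is used in place of longer ones in making fluoropolymers, and the comparison asked how mitochondrial transcripts differ between doses. The libraries were stranded and made from total RNA depleted of ribosomal RNA. Nothing in the labels says that the replicates were separate cultures, so a p-value here reflects the spread between 6 libraries, which may be technical.

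The plus strand of mtDNA is copied into long precursors that hold messenger, ribosomal and transfer RNAs end to end. Transfer RNAs punctuate these precursors: RNase P cuts at their 5′ ends and the ELAC2 nuclease at their 3′ ends, which frees the messenger RNAs on both sides. The transfer RNAs then receive a CCA tail and many base modifications before mitochondrial synthetases charge them. A count on such a gene can come from an uncut precursor, from the mature molecule or from mtDNA carried into the RNA, and gene counts cannot tell these apart.

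Most of these genes abut a protein gene without a spare base. MT-TG and MT-TR touch protein genes at both ends, MT-TI, MT-TW and MT-TH touch the one on their 5′ side, and MT-TM, MT-TD and MT-TL2 the one on their 3′ side. MT-TK lies 25 bases after MT-CO2 and 1 base before MT-ATP8, while MT-TS2 sits between MT-TH and MT-TL2. The genes are 59 to 71 bases long, with a GC content of 23.1% to 45.8%, and MT-TI overlaps the 3′ end of the minus-strand gene MT-TQ. The 5 shown here include the pair with the highest counts per kb with 10 µM (MT-TG and MT-TH) and the shortest (MT-TS2). The others are MT-TD, between the neighbouring protein genes most densely counted with 100 µM, and MT-TL2, with the most negative fold change at that dose. Each of the 5 is the gene in GRCh38, plus strand, from the GENCODE v29 transcripts, written 5′ to 3′ with the anticodon in capitals.
MT-TD, aspartate, MT:7518-7585: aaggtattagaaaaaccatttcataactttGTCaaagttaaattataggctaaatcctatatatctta
MT-TG, glycine, MT:9991-10058: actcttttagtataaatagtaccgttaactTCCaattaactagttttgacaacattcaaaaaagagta
MT-TH, histidine, MT:12138-12206: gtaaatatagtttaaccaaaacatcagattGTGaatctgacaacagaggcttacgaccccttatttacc
MT-TS2, serine, MT:12207-12265: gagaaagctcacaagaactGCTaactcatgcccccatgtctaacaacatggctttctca
MT-TL2, leucine, MT:12266-12336: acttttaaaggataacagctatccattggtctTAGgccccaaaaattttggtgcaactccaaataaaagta
MT-TS2 is known for lacking the D arm that other transfer RNAs carry, and it is 59 bases long.

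Depth set what could be seen. Libraries held 29350 to 2141282 counts on genes, least with 10 µM and most with 100 µM, and mtDNA genes took 4.35% and 10.4% of them in the controls, 43.7% and 61.1% with 10 µM, and 3.58% and 3.32% with 100 µM. That gene set was thus most prominent with 10 µM. MALAT1, a nuclear RNA, made up 13.5% and 4.61% in the controls, 0.0390% and 0.0443% with 10 µM, and 2.88% and 2.60% with 100 µM. Both kinds of nuclear-encoded RNA were scarcest at 10 µM: the 10 hepatocyte markers summed to 0.598% and 1.22% in the controls, 0.0436% and 0.0136% with 10 µM, and 1.10% and 1.08% with 100 µM, with 2 to 10 of them detected per library. Albumin had 22 and 31 counts in the controls, 2 and 0 with 10 µM, and 176 and 232 with 100 µM. The 4 markers of fibroblasts, leukocytes and endothelium summed to at most 0.0307% in any library. That value was 9 counts in the second 10 µM library, where the hepatocyte markers held only 4. The part that nuclear and cytosolic RNA, or carried-over mtDNA, in the preparations plays in the results was not tested.

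The 10 genes together held 139 and 167 counts in the controls, 740 and 740 with 10 µM, and 55 and 66 with 100 µM, so the deepest libraries had the fewest. As a share of all counts this was 0.0578% (95% exact binomial interval 0.0486 to 0.0682) and 0.274% (0.234 to 0.319) in the controls. Libraries from cells given 10 µM had a share of 1.70% (1.58 to 1.82) and 2.52% (2.34 to 2.71). Those given 100 µM had 0.00257% (0.00193 to 0.00334) and 0.00493% (0.00381 to 0.00627). The doses did not overlap, and the intervals cover counting error only. In these bulk preparations fewer mitochondria and less of these RNAs per mitochondrion cannot be told apart. The mean share was 2.11% ± 0.581 with 10 µM and 0.166% ± 0.153 in the controls (SD, n = 2 each), a difference of 1.94 percentage points. It was 0.00375% ± 0.00167 with 100 µM, which differed from the controls by -0.162 points and from 10 µM by -2.11 points. All 3 comparisons had p = 0.333 by exact permutation, two-sided, and no smaller p exists with 2 against 2 libraries.

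The same order held within mtDNA. Of all mtDNA counts the 10 genes held 1.33% and 2.63% in the controls, 3.88% and 4.12% with 10 µM, and 0.0717% and 0.149% with 100 µM. Against the protein gene on the 5′ side of each, as summed counts per kb of gene, they stood at ratios of 0.194 and 0.450 in the controls, 0.752 and 0.789 with 10 µM, and 0.00982 and 0.0204 with 100 µM. The 10 µM ratio was 2.61-fold that of the controls, and the 100 µM ratio was 20.9-fold lower than in the controls and 54.5-fold lower than with 10 µM (p = 0.333 each, exact permutation, two-sided, n = 2 each, the lowest p possible). Taken against the protein genes on the 3′ side, the ratios were 0.254 and 0.489 in the controls, 0.755 and 0.837 with 10 µM, and 0.0174 and 0.0368 with 100 µM. Gene by gene, the 100 µM and control libraries did not overlap for 10 of 10 against the 5′ neighbour. Against the 3′ neighbour these libraries did not overlap for 8 of 10. The 100 µM and 10 µM libraries did not overlap for 10 of 10 against either. Relative to the summed plus-strand mtDNA protein genes, 6.67% of all genes tested were lower without overlap at 100 µM against control. At 100 against 10 µM that share was 3.71%. Such a share was not computed against single neighbours. Together the 10 genes came closest to the counts per base of their neighbours with 10 µM and lay farthest below them with 100 µM.

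**Figure D1:**
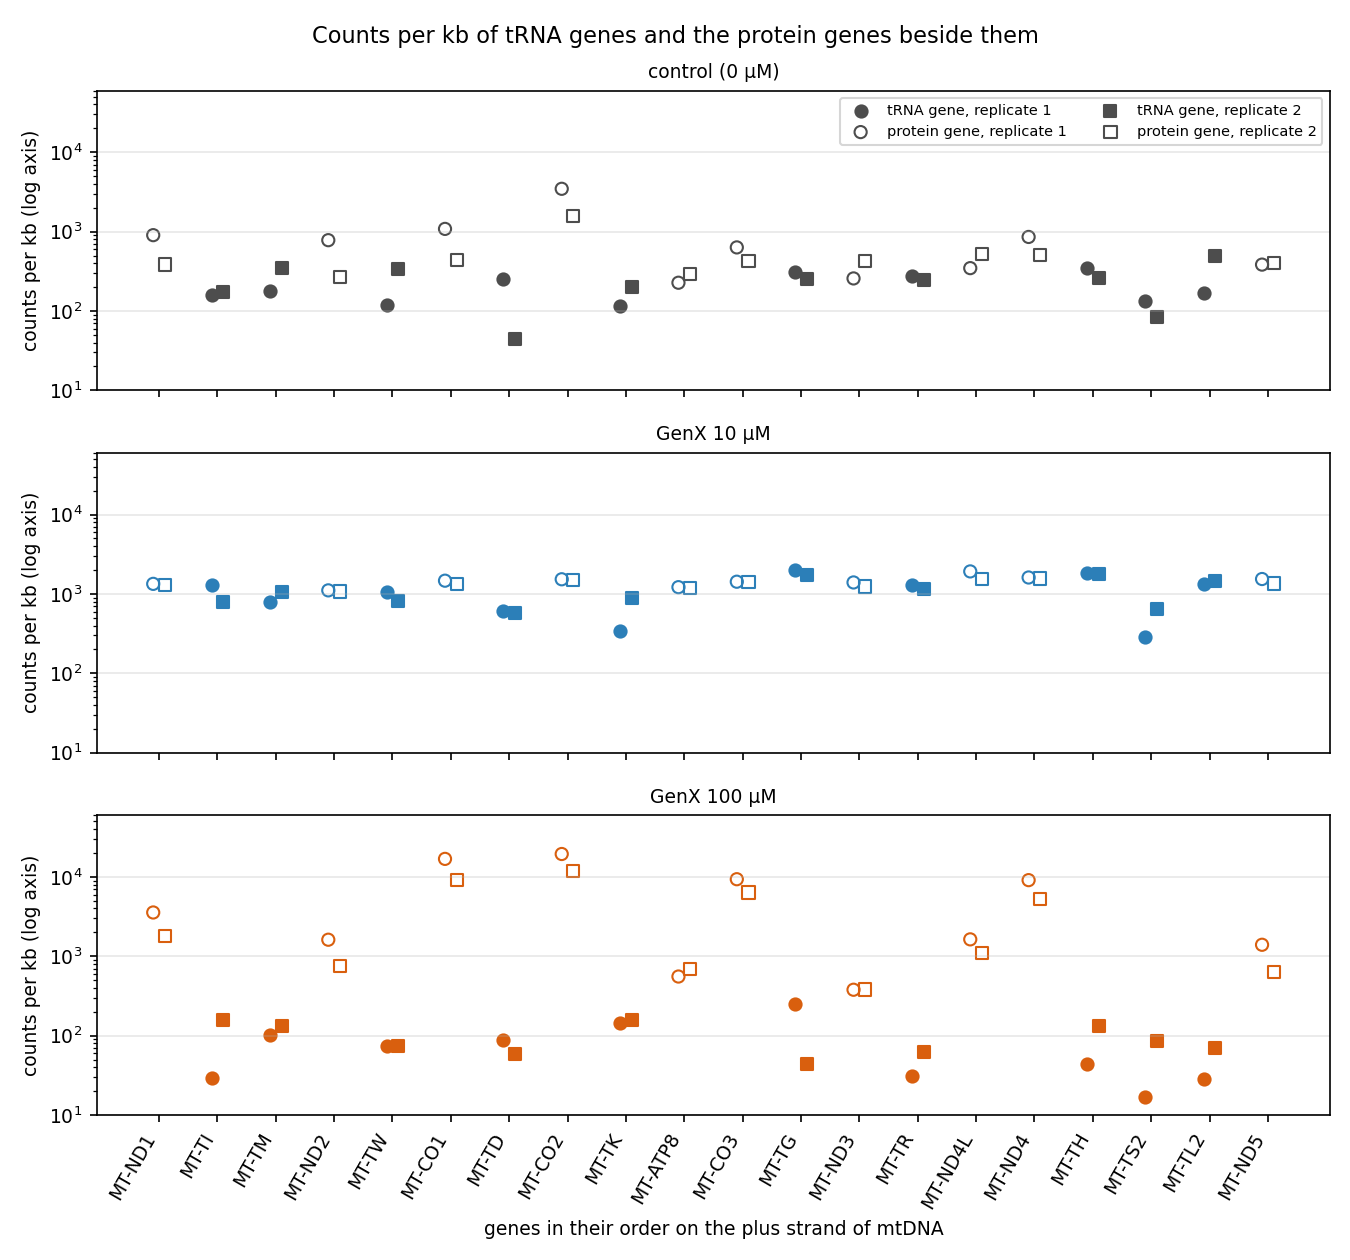
Counts per kb on a log axis for the 10 transfer RNA genes (filled) and the protein genes beside them (open), in their order on the plus strand, with a panel for each dose and a marker shape for each library. At 10 µM the transfer RNA genes lie between 288 and 2000 counts per kb, close to the protein genes, and at 100 µM they lie at 16.9 to 250.0 with every protein gene shown above them.

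Between MT-ND1 and MT-CO1 lie MT-TI, MT-TM and MT-TW. MT-TI, the isoleucine transfer RNA, had 11 and 12 counts in the controls, 90 and 54 with 10 µM, and 2 and 11 with 100 µM. Relative to MT-ND1, which it follows directly, its counts per kb stood at 0.177 and 0.452 in the controls, 0.973 and 0.611 with 10 µM, and 0.00814 and 0.0885 with 100 µM. The 100 µM libraries lay below both controls here but far from each other, and the lower one rests on 2 counts. Relative to MT-ND2 the 100 µM ratios of 0.0179 and 0.212 overlapped the control ratios of 0.204 and 0.647. MT-TM, which reads methionine codons both at the start and within a message, had 12 and 24 counts in the controls, 54 and 73 with 10 µM, and 7 and 9 with 100 µM. It precedes MT-ND2, and relative to that gene it stood at 0.226 and 1.31 in the controls, 0.716 and 0.999 with 10 µM, and 0.0637 and 0.176 with 100 µM. The 10 µM libraries thus fell between the controls. MT-TW, which in mitochondria reads UGA as tryptophan, had 8 and 23 counts in the controls, 71 and 56 with 10 µM, and 5 and 5 with 100 µM. Relative to MT-ND2, on its 5′ side, it stood at 0.151 and 1.26 in the controls, 0.941 and 0.766 with 10 µM, and 0.0455 and 0.0980 with 100 µM, so only the 100 µM libraries stood apart.

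MT-TD and MT-TK flank MT-CO2, the neighbour with the most counts per kb in the controls and with 100 µM. MT-TD, the aspartate transfer RNA, whose anticodon carries the modified base queuosine, had 17 and 3 counts in the controls, 41 and 39 with 10 µM, and 6 and 4 with 100 µM. Relative to MT-CO2, which it abuts, it stood at 0.0722 and 0.0278 in the controls, 0.394 and 0.384 with 10 µM, and 0.00454 and 0.00500 with 100 µM. These doses did not overlap, and at 100 µM MT-CO2 had 19427 and 11756 counts per kb beside 88.2 and 58.8 on MT-TD. MT-TK, the lysine transfer RNA, had 8 and 14 counts in the controls, 24 and 62 with 10 µM, and 10 and 11 with 100 µM. Relative to MT-CO2 on its 5′ side it stood at 0.0330 and 0.126 in the controls, 0.224 and 0.593 with 10 µM, and 0.00735 and 0.0134 with 100 µM. Relative to MT-ATP8, 1 base beyond its 3′ end, the ratios were 0.503 and 0.679 in the controls, 0.282 and 0.751 with 10 µM, and 0.257 and 0.226 with 100 µM. The 100 µM libraries were again lowest, but by less than against MT-CO2, and MT-ATP8 itself had only 556 and 696 counts per kb there.

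MT-TG and MT-TR frame MT-ND3. MT-TG, the glycine transfer RNA, had 21 and 17 counts in the controls, 136 and 119 with 10 µM, and 17 and 3 with 100 µM. In CPM, its count scaled by the total of the library, it averaged 3588 ± 659 with 10 µM and 183 ± 136 in the controls (SD, n = 2 each), and 5.09 ± 4.03 with 100 µM. Its counts per kb exceeded those of MT-CO3 with 10 µM, with ratios of 1.40 and 1.24 and lower 95% counting bounds of 1.17 and 1.02, against 0.488 and 0.592 in the controls. At 100 µM the ratios were 0.0267 and 0.00693. Against MT-ND3, on its other side, it stood at 1.20 and 0.592 in the controls, 1.43 and 1.41 with 10 µM, and 0.660 and 0.116 with 100 µM. The value of 0.660 rests on 17 counts, and on this side the 100 µM and control libraries overlapped. MT-TR, the arginine transfer RNA, had 18 and 16 counts in the controls, 84 and 74 with 10 µM, and 2 and 4 with 100 µM. Relative to MT-ND3, which it follows, it stood at 1.08 and 0.583 in the controls, 0.926 and 0.918 with 10 µM, and 0.0813 and 0.161 with 100 µM. The 10 µM values lay between those of the controls, as they did relative to MT-ND4L on the other side.

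MT-TH, MT-TS2 and MT-TL2 follow one another without a gap between MT-ND4 and MT-ND5. MT-TH, the histidine transfer RNA, had 24 and 18 counts in the controls, 128 and 122 with 10 µM, and 3 and 9 with 100 µM. Its mean was 198 ± 139 CPM in the controls, 3548 ± 861 CPM with 10 µM and 4.06 ± 3.76 CPM with 100 µM (SD, n = 2 each). Relative to MT-ND4 it stood at 0.406 and 0.512 in the controls, 1.15 and 1.13 with 10 µM, and 0.00478 and 0.0248 with 100 µM. MT-TS2, which reads the AGY serine codons, had the fewest counts of the 3 or tied for them, with 8 and 5 in the controls, 17 and 38 with 10 µM, and 1 and 5 with 100 µM. Relative to MT-ND4 it stood at 0.158 and 0.166 in the controls, 0.179 and 0.412 with 10 µM, and 0.00186 and 0.0161 with 100 µM. Its lowest value rests on 1 count, with a 95% counting interval of 4.71e-05 to 0.0104. MT-TL2, which reads the CUN leucine codons, had 12 and 35 counts in the controls, 95 and 103 with 10 µM, and 2 and 5 with 100 µM. Relative to MT-ND5, which it abuts, it stood at 0.440 and 1.23 in the controls, 0.868 and 1.07 with 10 µM, and 0.0202 and 0.111 with 100 µM. The control libraries spread on both sides of the 10 µM ones, and the 100 µM libraries lay below all of them.

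**Figure D2:**
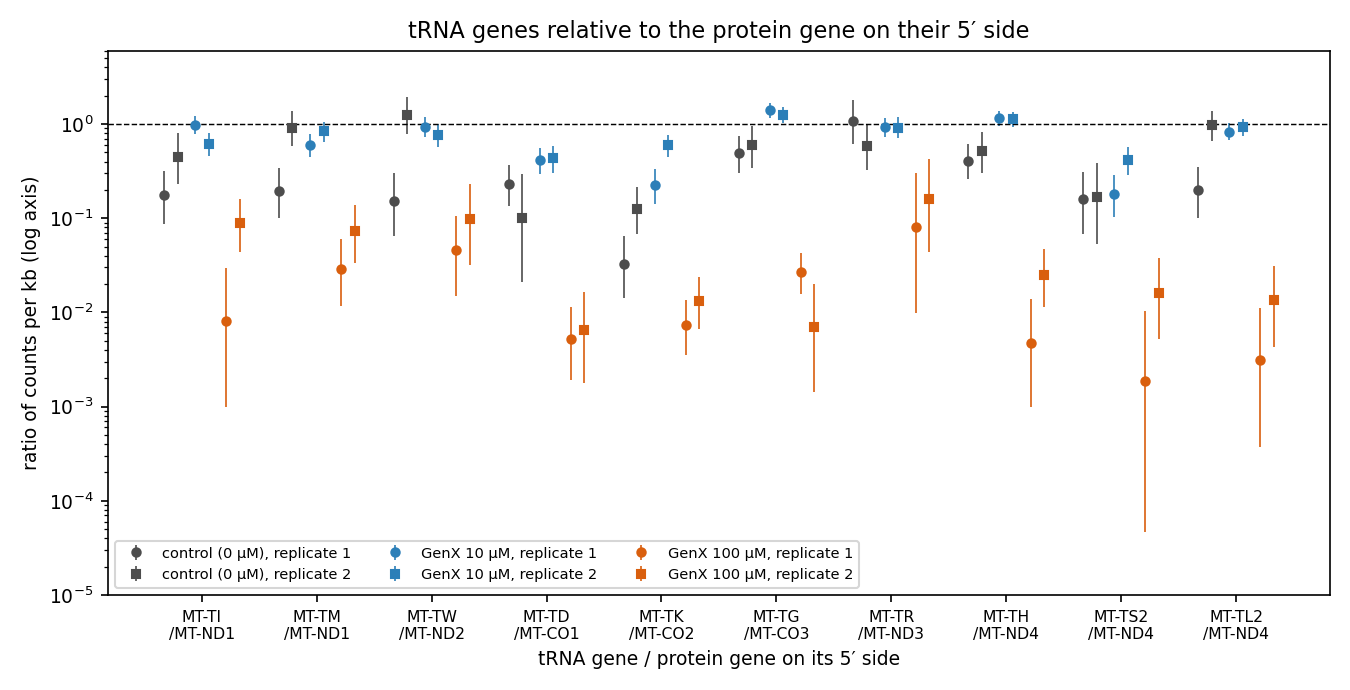
Ratio of counts per kb of each transfer RNA gene to the protein gene on its 5′ side, on a log axis, for the 6 libraries, with 95% exact counting intervals as bars and equal density as the dashed line. The 100 µM libraries lie lowest for every gene, and the 10 µM libraries reach or pass 1 for MT-TG and MT-TH.

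In both 10 µM libraries MT-TG (2000 and 1750 counts per kb) and MT-TH (1855 and 1768) led, followed by MT-TL2 (1338 and 1451), and MT-TG and MT-TH did not differ beyond their spread. MT-TD (603 and 574) and MT-TS2 (288 and 644) were among the 3 lowest in both, while MT-TI (1304 and 783) and MT-TK (343 and 886) changed places. In the controls MT-TH led in the first library with 348 counts per kb and MT-TL2 in the second with 493, and the lowest were MT-TK with 114 and MT-TD with 44.1. At 100 µM MT-TG was highest in the first library with 250.0 and lowest in the second with 44.1, on 17 and 3 counts. The split of counts over the 10 genes differed between replicates by more than counting error, with chi-square values of 33.8 in the controls, 40.7 with 10 µM and 23.5 at 100 µM on 9 degrees of freedom each. The SD of log2 counts per kb over the 10 genes was 0.583 and 1.03 in the controls, 0.963 and 0.571 with 10 µM, and 1.23 and 0.656 with 100 µM. Over the 12 plus-strand protein genes it was 1.08 and 0.638 in the controls, 0.231 and 0.197 with 10 µM, and 1.82 and 1.64 with 100 µM. Protein genes were thus nearly even with 10 µM, where the transfer RNA genes were not.

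Features of sequence and position did not order the genes closely. Spearman's rho between length and mean counts per kb over the 10 genes was 0.43 in the controls, 0.33 with 10 µM and 0.34 with 100 µM. For GC content it was 0.030 in the controls, -0.25 with 10 µM and 0.073 with 100 µM. For position along the strand it was 0.30 in the controls, 0.23 with 10 µM and -0.51 with 100 µM. With the counts per kb of the 5′ neighbour it was -0.31 in the controls, 0.11 with 10 µM and 0.48 with 100 µM. The genes share libraries and, in part, neighbours, so these are descriptions.

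At 100 µM all 10 genes were lower than at 10 µM in edgeR's quasi-likelihood test, with log2 fold changes between -10.51 (MT-TL2) and -7.95 (MT-TK) and adjusted p between 0.00760 and 0.0421. Over all 3180 genes tested, 2.11% passed downward and 0.755% upward, and all genes had a median of 3.52 on the log2 scale, a shift upward against which these values stand. The members' median was -9.26. On this scale all 12 plus-strand mtDNA protein genes also passed downward (log2 -7.67 to -2.61, adjusted p 0.00129 to 0.0183). So did MT-ND6, at -6.31 (adjusted p = 0.00233). Scaled to the counts on the 12 plus-strand mtDNA protein genes, the 10 were also lower. Their log2 fold changes were -6.44 to -3.83, with adjusted p of 0.0114 to 0.0346. Of those 12 protein genes, 3 were called lower too: MT-ND3 (-3.61), MT-ND5 (-2.48) and MT-ND2 (-1.85). Another 2 were called higher, at 1.45 for MT-CO2 and 1.28 for MT-CO1. The minus-strand gene MT-ND6 was called lower, at -2.25. The fall was thus not confined to transfer RNA genes. On that scale 1.89% of genes passed downward, while 74.4% passed upward. The raw ordering was the same on both scales: each 100 µM library lay below each 10 µM library for all 10 genes, where 7.3% of genes tested did so in CPM and 3.71% relative to the protein genes. Of the 10, 7 cleared the filter on low counts only through the 10 µM libraries, so a difference was built into their selection. With no filter, on the scale of all genes, 0 of the 10 passed (adjusted p from 0.0859 to 0.167). There 0 of all 19632 genes tested passed downward and 3 upward, so the loss of calls on that scale was not particular to the 10. Scaled to the mtDNA protein genes with no filter, 0 of the 10 passed too (adjusted p from 0.0539 to 0.257). On that scale 7 of 19632 genes passed downward and 1515 upward. Leaving out any 1 of the 4 libraries, which leaves 1 in its group, also removed the calls of the 10 on the scale of all genes. Most downward calls of other genes were lost as well. Every log2 fold change of the 10 was still negative there, from -11.57 to -6.69.

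At 10 µM against control 0 of the 10 passed in edgeR's quasi-likelihood test, though all had values above 0, from 3.02 (MT-TM) to 4.18 (MT-TG) on the log2 scale (adjusted p from 0.120 to 0.174). Passing upward was rare there, 0.22% of all genes tested (7 genes), and the median of all genes was -3.17. Those 7 were all among the 12 plus-strand mtDNA protein genes. At an unadjusted p under 0.05 all 10 were higher, beside 5.85% of genes tested. As 7 of the 10 were tested only because of their 10 µM counts, this count lends no support. The same selection bears on every count below that uses this filter. At an unadjusted p under 0.05, 2 of 10 were higher with no filter, beside 385 of 19632 genes. With a mean of at least 5 CPM 2 were, beside 362 of 11953. DESeq2's Wald test, with the same filter, called all 10 higher, beside 5.16% of genes tested. Both 10 µM libraries exceeded both controls in CPM for all 10 genes, as for 10.3% of genes tested. Scaled to the plus-strand mtDNA protein genes the differences shrank to between 0.54 and 1.61 on the log2 scale, with 0 of 10 passing, 0 at an unadjusted p under 0.05 (beside 0.157% of genes tested), and adjusted p of 0.368 or more, where 0% of all genes passed upward. On that scale both 10 µM libraries lay above both controls for 6 of the 10, beside 3.87% of genes tested. Dropping control 1 gave 2 calls among the 10 on the scale of all genes, where 0.786% of genes passed upward, and dropping control 2 gave 9, where 2.33% did.

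At 100 µM against control 0 of the 10 passed in edgeR's quasi-likelihood test, and neither did any other gene (0% of those tested), with log2 values of -7.34 (MT-TL2) to -4.68 (MT-TK) and adjusted p from 0.166 to 0.204. The median of all genes was 0.36. At an unadjusted p under 0.05 all 10 were lower, as were 6.04% of genes tested. With no filter 9 of 10 were, beside 400 of 19632 genes. With a mean of at least 5 CPM 7 were, beside 321 of 11953. DESeq2's Wald test called all 10 lower, beside 5.38% of genes tested. Both 100 µM libraries lay below both controls for the 10 genes, as for 10.1% of genes tested in CPM and 6.67% relative to the protein genes. Scaled to the plus-strand protein genes the log2 values ran from -5.71 to -3.11, again with 0 of 10 passing (9 at an unadjusted p under 0.05, as for 2.3% of genes tested). Dropping control 1 gave 6 calls on the scale of all genes, where 1.29% of genes passed downward, and 8 on the protein scale, where 3.27% did. Dropping control 2 gave 5 on each, beside 1.32% of genes on the scale of all genes and 4.21% on the protein scale.

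**Figure D3:**
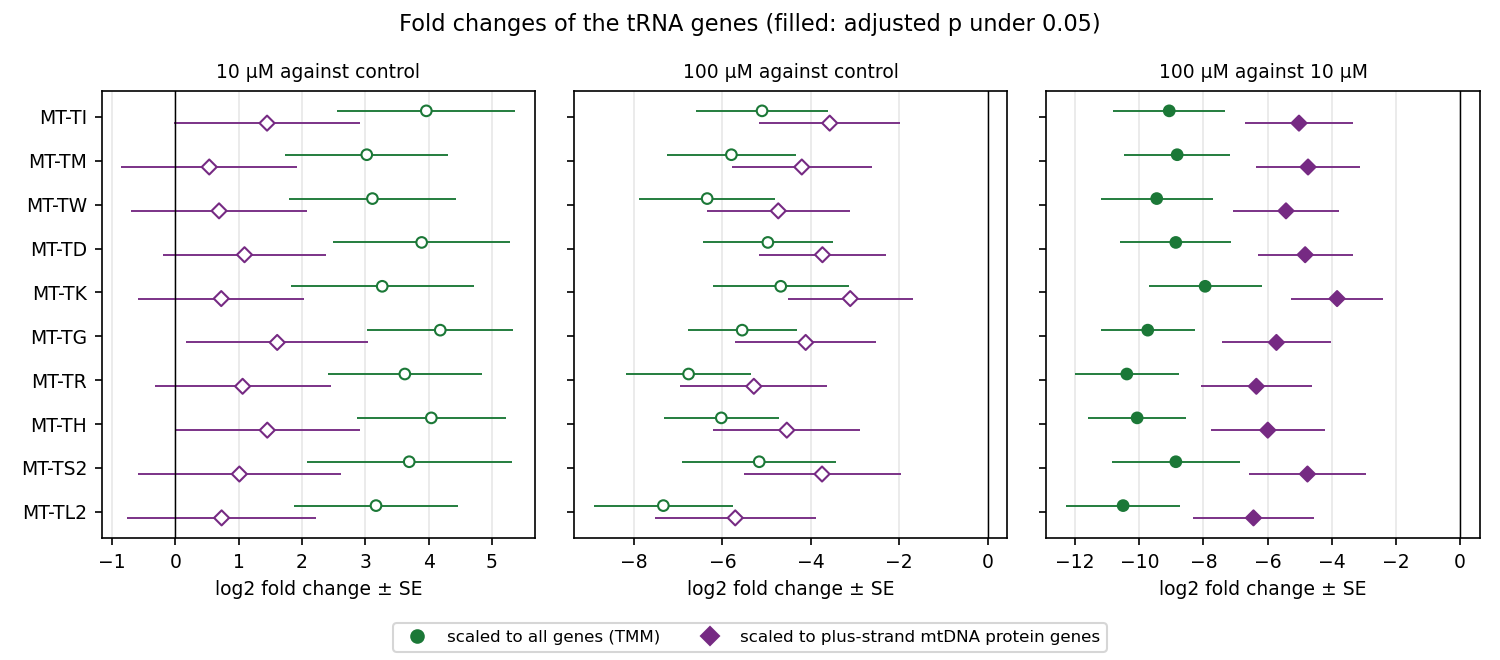
Log2 fold change with its SE from edgeR for each transfer RNA gene in the 3 comparisons, scaled to all genes (circles) or to the plus-strand mtDNA protein genes (diamonds), filled where the adjusted p was under 0.05. Only the 100 µM against 10 µM panel holds filled markers, all 10 on both scales and all below 0.

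Transfer RNA genes on the minus strand and beside the ribosomal RNA genes had more counts per kb. The 8 on the minus strand together held 904 and 656 counts per kb in the controls, 1482 and 1306 with 10 µM, and 569 and 442 with 100 µM. The 10 plus-strand genes held 206 and 247 in the controls, 1096 and 1096 with 10 µM, and 81.5 and 97.8 with 100 µM, lower in every library. The ratio of the 10 genes to the 8 was 0.228 and 0.377 in the controls, 0.740 and 0.839 with 10 µM, and 0.143 and 0.221 with 100 µM. It was 4.43-fold lower at 100 µM than with 10 µM (p = 0.333, exact permutation, two-sided, the lowest p possible), and the doses did not overlap. MT-TC, named after its values were seen, had 248 and 125 counts in the controls, 73 and 41 with 10 µM, and 140 and 93 with 100 µM, and in the controls and with 100 µM it had the most counts of the 8. Without it and MT-TY, left out after values were seen, the ratio was 0.537 and 0.517 in the controls, 0.656 and 0.724 with 10 µM, and 0.339 and 0.415 with 100 µM. The doses still did not overlap but lay closer together. Relative to the 3 genes that flank the ribosomal RNA genes, the 10 stood at 0.151 and 0.251 in the controls, 0.321 and 0.293 with 10 µM, and 0.0105 and 0.0192 with 100 µM. Those 3 included MT-TL1, also named after its values were seen, which had 1620 and 1036 counts with 100 µM, against 199 and 158 with 10 µM. Without it the ratio was 0.251 and 0.209 in the controls, 0.286 and 0.237 with 10 µM, and 0.215 and 0.240 with 100 µM, and the doses overlapped. On the scale of all genes the 10 passed downward at 100 against 10 µM, 7 of them tested only through their 10 µM counts. Of the 8 minus-strand genes 7 did so, and 2 of the 3 flanking genes, beside 2.11% of genes tested. MT-TT, the plus-strand gene after MT-CYB, was also lower there, at -9.17 on the log2 scale (adjusted p = 0.0285 in edgeR's test). Scaled to the mtDNA protein genes, 6 of the 8 and 2 of the 3 passed downward, beside 1.89% of genes tested. The 10 genes held a share of the counts on all 22 of 14.8% and 22.0% in the controls, 31.4% and 32.1% with 10 µM, and 2.69% and 4.69% with 100 µM.

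**Figure D4:**
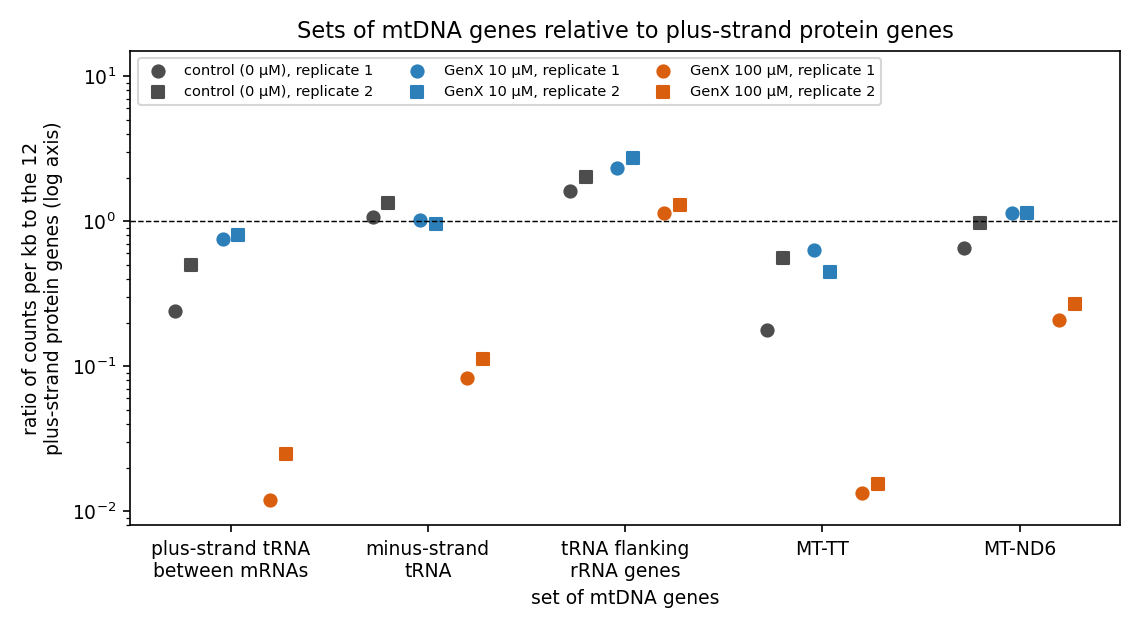
Ratio of counts per kb to the 12 plus-strand mtDNA protein genes, on a log axis, for the 10 plus-strand transfer RNA genes between messenger RNAs, 8 on the minus strand, 3 flanking ribosomal RNA genes, MT-TT and the minus-strand protein gene MT-ND6, with 2 libraries per dose. The 10 genes lie at 0.0120 and 0.0250 with 100 µM, below the minus-strand set at 0.0836 and 0.113.

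The genes most like the 10 in log2 CPM over the 6 libraries were MT-TV, MT-ND6 and MT-TQ in mtDNA, with Pearson's r of 0.999, 0.998 and 0.997 to their mean. Outside mtDNA they were UBBP1, ADGRA1, MTND2P28, PPP2R3B and ANKRD13D (0.994 to 0.985), each with 23 counts or fewer in every library. These correlations rest on 6 points that share depth and mtDNA content. MTND2P28 is a nuclear copy of MT-ND2, so reads can be split between them.

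Nuclear genes of transfer RNA maturation were counted too thinly for most tests. Of 8 genes of mitochondrial RNA cutting and 3′-end work 2 were tested, and on the scale of all genes 0 passed in any comparison, as was so for the 3 other lists. TBRG4, an RNA-binding FASTK protein, had 42 and 4 counts in the controls, 10 and 0 with 10 µM, and 185 and 164 with 100 µM (log2 -0.63 at 100 against 10 µM, adjusted p = 0.792). Its CPM overlapped between doses. NSUN2, an RNA methyltransferase and the 1 gene tested of 21 for base modification, had 167 and 0 counts in the controls, 1 and 0 with 10 µM, and 35 and 93 with 100 µM. Of the 10 synthetases that charge the 10 transfer RNAs 2 were tested, and GARS, which charges glycine in mitochondria and cytosol, had 42 and 0 counts in the controls, 0 and 2 with 10 µM, and 1024 and 450 with 100 µM (log2 3.40 at 100 against 10 µM, adjusted p = 0.250). Of 11 genes that act in transcription of mtDNA or decay of its RNA 5 were tested. LRPPRC, which stabilises mitochondrial messenger RNAs, had 3 and 0 counts in the controls, 11 and 0 with 10 µM, and 557 and 375 with 100 µM (log2 0.61 at 100 against 10 µM, adjusted p = 0.802). Scaled to the mtDNA protein genes, on which most genes were higher at 100 against 10 µM, 6 genes of these lists passed upward in that comparison, beside the 74.4% of all genes that did. They were FASTKD5 of the cutting list, the synthetases GARS and KARS, and SLIRP, TFAM and REXO2 of transcription and decay. Of these FASTKD5, SLIRP and TFAM had 0 counts in both 10 µM libraries. All but GARS cleared the filter on low counts only through the 100 µM libraries. An upward difference was thus built into their selection, and their calls lend no support. NSUN2 was lower at 10 µM against control on that scale (log2 -7.94, adjusted p = 0.0467), where 38.5% of all genes passed downward, and its control counts lay in 1 library.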

How the data were processed

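The values were raw counts of reads per gene that the authors deposited, 1 table per library, in the layout of featureCounts. Per the submitters' processing notes FastQC, STAR, featureCounts and DESeq2 were used with GRCh38. Read length, strand setting and the handling of reads that overlap 2 genes are not given in the sources used here, and each can lower or raise counts on genes as short as these. Symbols came from GENCODE v29, which gave all 35 mtDNA genes the same coordinates as the tables. Counts per kb used the length column of the tables, and the levels of 3 counts ranged from 1.40 to 102 CPM. The ribosomal RNA genes of mtDNA were not used here.

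Tests were fitted in R 4.3.3 by edgeR 4.0.16, after filterByExpr (at least 66.33 CPM in 2 libraries), TMM, robust quasi-likelihood fits of all 6 libraries and Benjamini-Hochberg adjustment over 3180 genes at 0.05. A second fit set the library size to the counts on the 12 plus-strand mtDNA protein genes. SE is the log2 fold change divided by the root of F. Pooled values were compared by exact permutation tests in scipy 1.17.1, and log2 CPM for likeness used a prior count of 2. Replicate pairs gave chi-square values per degree of freedom of 39.4 for control, 12.9 for 10 µM GenX and 35.2 for 100 µM GenX, so none agreed within sampling noise. Fits were tested on simulated counts. Alternatives were other scalings, filters and library sets, DESeq2 1.42.0, a replicate block, other neighbours and leaving out each library. The members and gene lists were chosen with earlier results of these data known. Named were the 10 genes and their neighbours, the 3 mtDNA and 5 other genes most like them, and in each nuclear list those that passed on the scale of all genes (0 did) or else the 1 with the highest mean CPM; nuclear genes named for passing on the protein scale were added after their values were seen.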

Additional observations from a re-analysis of the deposited data

How the results depend on the processing

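Every fold change of the 10 genes kept its sign under every alternative run on the scale of all genes, in all 3 comparisons, and the pooled ratio to neighbours and the share of counts kept theirs. Without 1 library the pooled log2 ratio ran from 0.78 to 1.99 at 10 µM against control, from -4.99 to -3.78 at 100 µM against control and from -6.29 to -5.24 at 100 against 10 µM. Scaled to mtDNA protein genes, 4 values at 10 µM against control turned below 0: MT-TM (-0.11), MT-TW (-0.059) and MT-TL2 (-0.017) without control 1, and MT-TK (-0.18) without the second 10 µM library. Without 1 library these reached at most 1.68 (MT-TM), 2.25 (MT-TW), 2.31 (MT-TL2) and 1.71 (MT-TK). Calls moved more. At 10 µM against control 0 calls became 9 with only the 4 libraries compared (where 72 of 458 genes tested passed upward and 134 downward), 10 in DESeq2's Wald test, and 0 to 9 without 1 library. At 100 µM against control 0 became 4 with the replicate block, 10 in DESeq2's Wald test, and 0 to 6 without 1 library, or 0 to 8 on the protein scale. At 100 against 10 µM 10 became 0 with no filter on both scales. Of 19632 genes 0 then passed downward on the scale of all genes and 7 on the protein scale. Calls also moved on both scales without 1 library. With a mean of at least 5 CPM 7 of the 10 passed on the scale of all genes, beside 90 of 11953 genes downward. On the protein scale 4 did, beside 27 of 11953. With the replicate block 5 passed on the protein scale, beside 35 of 3180 genes. The cause was not tested. Over all genes the count of calls at 10 µM against control (7 higher and 12 lower) became 164 and 362 in DESeq2's Wald test, that at 100 µM against control (0 and 0) became 49 and 171, and that at 100 against 10 µM (24 and 67) became 158 and 216, or 6 and 73 with DESeq2's size factors and 68 and 91 with library sizes alone. The labels do not say whether same-numbered libraries of different groups were paired. Deviations of same-numbered libraries correlated at 0.000363, 0.00313 and -0.0222, which cannot settle it, as counting noise is large in the shallow libraries. At 100 µM each gene rests on 1 to 17 counts per library.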
